A study of Mus musculus with 12 samples.

Results

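Respiratory complex I, NADH:ubiquinone oxidoreductase, is the entry point of electrons from NADH into the mitochondrial respiratory chain, and most of its subunits are encoded in the nucleus under gene symbols that start with Nduf. The genes described here are every protein-coding gene of the deposited count table whose symbol starts with Nduf, counted once per Ensembl gene. There were 46 such genes among 40594 genes in the table. All 46 passed the filter on low counts and were among the 15494 genes tested. The 1 further Nduf gene, of another biotype, was left out by that rule.

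The study profiled total RNA from ventricles of adult mouse hearts by RNA-seq, and asked how Wnt-dependent programming differs between the right and the left ventricle. The 4 groups, of 3 libraries each, were the right ventricle of Wnt loss-of-function hearts (WntLOF RV), the left ventricle of Wnt loss-of-function hearts (WntLOF LV), the right ventricle of control hearts (control RV) and the left ventricle of control hearts (control LV). The labels give the genotype as Wnt LOF or control, without the allele, a Cre driver or the strain, and they do not tie a library to an animal. The p-values therefore measure the spread between these libraries, part of which may be technical.

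Complex I is L-shaped. The arm in the mitochondrial matrix oxidises NADH at a flavin and passes electrons along iron-sulphur clusters to ubiquinone, while the arm in the inner membrane pumps protons. The core subunits carry out that chemistry and are shared with bacteria, accessory subunits surround them, and assembly factors build the enzyme without staying in it. In heart muscle the enzyme feeds the respiration that supports contraction, and the core of the membrane arm is encoded in mitochondrial DNA. By role, the 46 genes were 7 core subunits, 9 accessory subunits of the matrix arm, 19 accessory subunits of the membrane arm, the acyl carrier subunit Ndufab1 of both arms, 8 assembly factors, and the genes Ndufa4 and Ndufa4l2, which keep an Nduf name although Ndufa4 is a subunit of complex IV and Ndufa4l2 is a hypoxia-inducible relative of it.

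Promoter sequence is shown because most of these genes lay on the same side of 0 between the ventricles. Of the 46 genes, 40 had at least 1 promoter in the RefSeq table (GRCm38.p6; 250 bases before to 50 after the start). Ndufa2, Ndufa4l2, Ndufaf6, Ndufb9 and Ndufs1 are among the others. Short motifs bound by transcription factors known from respiratory genes were searched on both strands. The YY1 core AAGATGGCG was in a promoter of 6 of the 40 genes (15%), against 1.4% of all 32851 promoters in the table. All 6 matches began after the start, from 11 bases for Ndufaf8 to 36 bases for Ndufs4. These letters include ATG, so each of these matches can also hold a start codon. The windows below are in lower case with the motif in capitals, each read 5′ to 3′ on the strand of its gene:
Ndufs7, chr10:80249463-80249492 (+): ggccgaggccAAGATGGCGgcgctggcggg
Ndufs4, chr13:114388045-114388074 (-): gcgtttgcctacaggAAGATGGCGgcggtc
Ndufs6, chr13:73328433-73328462 (-): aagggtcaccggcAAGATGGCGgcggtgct
Ndufa9, chr6:126849096-126849125 (-): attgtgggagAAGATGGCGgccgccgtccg
Ndufc1, chr3:51408914-51408943 (-): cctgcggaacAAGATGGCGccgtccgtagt
Ndufaf8, chr11:120098934-120098963 (+): ggcagggcccAAGATGGCGgcgccctcgag

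The NRF1 core GCGCATGCG was in a promoter of 4 genes (10%), against 1.75% of all promoters. Its reverse complement overlaps the core itself, so a palindromic stretch counts as overlapping matches. The capitals mark the matched letters on either strand:
Ndufa8, chr2:36049328-36049357 (-): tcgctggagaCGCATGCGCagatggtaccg
Ndufa11, chr17:56717692-56717721 (+): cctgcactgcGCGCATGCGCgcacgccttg
Ndufaf4, chr4:24897960-24897989 (+): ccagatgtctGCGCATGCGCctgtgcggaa
Ndufaf5, chr2:140170652-140170681 (+): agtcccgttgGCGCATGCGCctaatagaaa

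The ETS core CCGGAAG was in promoters of 6 genes (15%), against 8.86% of all promoters, and the CCAAT box in those of 14 (35%), against 37.4%. Per promoter, over the 42 promoters of these genes, the shares were 14.3% for YY1, 9.52% for NRF1, 14.3% for ETS and 33.3% for CCAAT. These matches describe letters in a window and say nothing on binding. The promoters of Ndufs7 and Ndufaf8 are given whole, since Ndufs7 had the smallest p-value of these genes in the WntLOF hearts and Ndufaf8 the smallest in the control hearts, with motif letters of any of the 4 kinds in capitals:
Ndufs7, chr10:80249199-80249498 (+): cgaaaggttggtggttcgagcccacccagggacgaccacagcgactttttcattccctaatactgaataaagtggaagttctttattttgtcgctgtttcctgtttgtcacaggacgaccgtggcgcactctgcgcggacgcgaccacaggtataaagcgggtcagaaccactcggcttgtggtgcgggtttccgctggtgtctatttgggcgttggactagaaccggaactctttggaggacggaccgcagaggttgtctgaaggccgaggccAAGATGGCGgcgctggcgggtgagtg
Ndufaf8, chr11:120098684-120098983 (+): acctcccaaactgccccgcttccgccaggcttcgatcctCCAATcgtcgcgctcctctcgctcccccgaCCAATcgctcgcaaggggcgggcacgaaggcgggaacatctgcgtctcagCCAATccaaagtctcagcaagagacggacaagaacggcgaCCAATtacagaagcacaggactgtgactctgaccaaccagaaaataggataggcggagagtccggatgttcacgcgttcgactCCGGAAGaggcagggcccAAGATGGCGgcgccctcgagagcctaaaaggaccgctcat

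Library totals ran from 13274922 to 19173391 counts, and the smallest count of any Nduf gene in any library was 125, for Ndufaf8. CPM, counts scaled to the same library total, are used for the level of a gene or list across libraries. Cardiomyocyte markers summed to 145873 to 168654 CPM in every library, and none of the 9 was at 0. The atrial muscle marker Myl7 was at 10.2 CPM in WntLOF RV 3 and at most 1.26 CPM in the other libraries. Summed with the other tested atrial markers (3 genes), the level was 43.0 CPM in WntLOF RV 3, within a range of 17.0 to 85.4 CPM over all libraries. Libraries that stand apart from their labels touch the results below. Wif1, which encodes a secreted Wnt inhibitor, had 2.55, 14.2 and 13.2 CPM in WntLOF RV and 13.5, 1.65 and 1.63 CPM in WntLOF LV. In control hearts it had 11.99, 12.3 and 18.4 CPM in RV and 2.62, 2.69 and 3.18 CPM in LV, so the libraries labelled WntLOF RV 1 and WntLOF LV 1 each had the level of the other ventricle. Aqp4 did the same, at 8.11 CPM in WntLOF RV 1 and 31.2 CPM in WntLOF LV 1. Control hearts had 23.5 to 33.9 CPM of Aqp4 in RV and 6.88 to 8.54 CPM in LV. Kcnd2 was at 83.3 to 95.8 CPM in control RV and 31.2 to 44.8 CPM in control LV. It had 54.2, 109 and 59.5 CPM in WntLOF RV and 91.2, 43.1 and 27.8 CPM in WntLOF LV. WntLOF RV 1 and WntLOF RV 3 were thus both between the control LV and control RV ranges for Kcnd2. The labels were kept, and counts are also given without that pair. Ctnnb1, which encodes the Wnt effector beta-catenin, was at 352 to 532 CPM in WntLOF libraries and 426 to 598 CPM in control libraries. The ranges overlapped: WntLOF LV 2, at 532 CPM, was above control RV 2, control RV 3, control LV 2 and control LV 3, and control LV 2, at 426 CPM, was below WntLOF RV 2 and WntLOF LV 2. The Y-linked gene Ddx3y was at 102 to 136 CPM in the 4 libraries numbered 3 and at most 0.772 CPM in the others, so sex and library number cannot be told apart.

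Levels between genes were compared as TPM, for which each count is divided by the exon length of its gene before scaling. Among the highest mean levels over the 12 libraries were those of the core subunit Ndufv1, at 1364 TPM, and the accessory subunit Ndufb9, at 1352 TPM. The accessory subunits Ndufa13 and Ndufb10 were at 1084 and 1047 TPM, and Ndufa4 was at 1059 TPM. Further core subunits were at 773 TPM for Ndufs7, 688 TPM for Ndufs8, 643 TPM for Ndufv2, 369 TPM for Ndufs1 and 273 TPM for Ndufs3. The assembly factors lay lower than most subunits, between 16.6 TPM for Ndufaf2 and 93.9 TPM for Ndufaf1. That range also held some accessory subunits, such as Ndufs5 at 82.1 TPM and Ndufb4 at 45.1 TPM. Ndufab1 at 24.7 TPM and Ndufb2 at 20.1 TPM were the lowest subunits, and their exon unions are long (6883 and 5628 bases), which lowers a level per length where few transcripts use the whole union.

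Summed over the 46 genes, the level was 9157, 10278 and 12054 CPM in WntLOF RV (libraries 1, 2 and 3), 8053, 7523 and 10309 CPM in WntLOF LV, 10337, 11374 and 10616 CPM in control RV, and 10161, 9656 and 8148 CPM in control LV. The group means were 10496 ± 1461 CPM in WntLOF RV, 8628 ± 1479 CPM in WntLOF LV, 10776 ± 537 CPM in control RV and 9322 ± 1047 CPM in control LV (SD, n = 3 each). Control RV lay above control LV in every library, while WntLOF RV and WntLOF LV overlapped, because WntLOF LV 3 was higher than WntLOF RV 1 and WntLOF RV 2. Together the genes took 0.765% to 1.17% of all counts in a library. In bulk tissue, fewer cells of a type and less RNA per cell cannot be told apart.

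**Figure D1:**
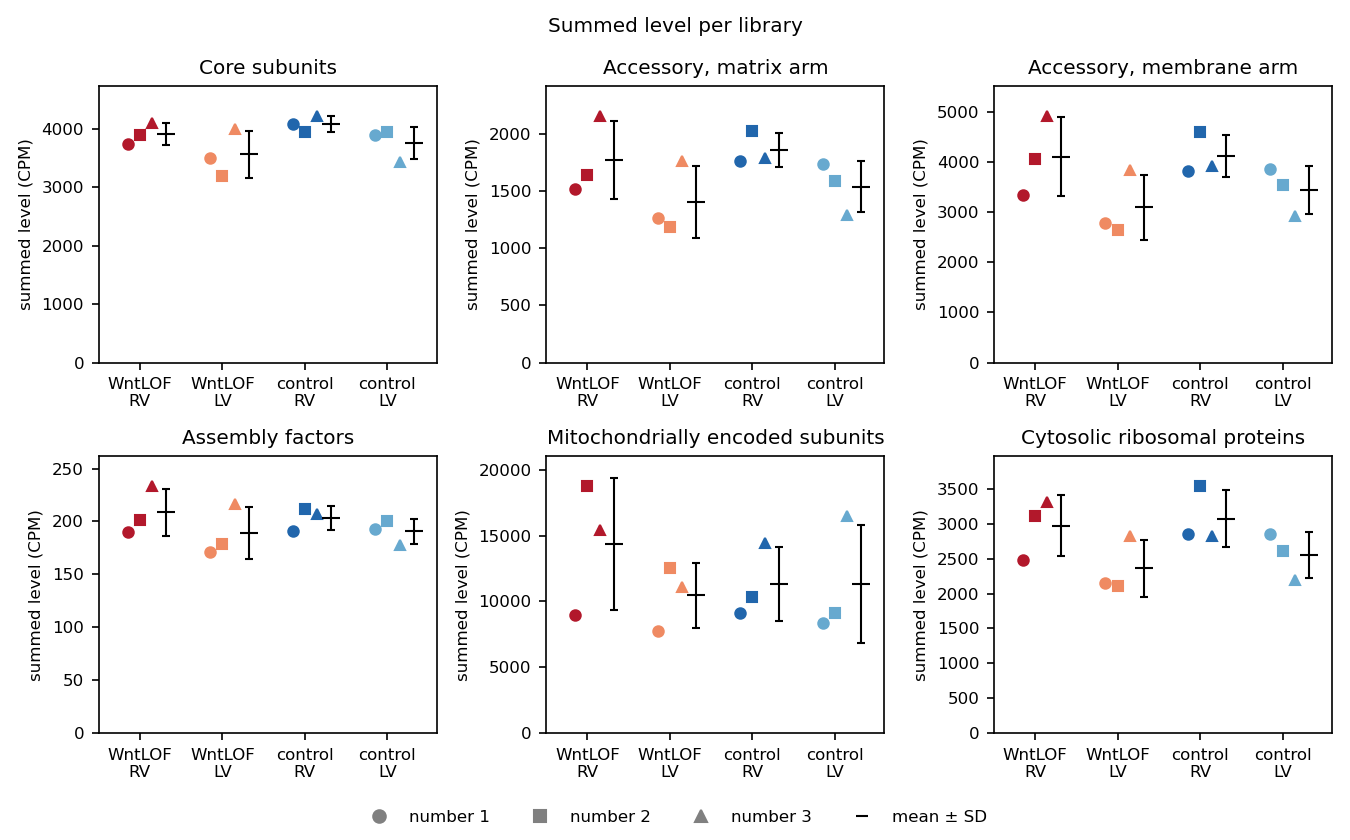
Summed CPM per library for 4 classes of Nduf genes, the mitochondrially encoded complex I subunits and the cytosolic ribosomal proteins, with groups on the x axis from WntLOF RV to control LV. Points are libraries with their number as the symbol, and bars are mean ± SD of 3 libraries. Membrane-arm accessory subunits summed to 4923 CPM in WntLOF RV 3 and 2646 CPM in WntLOF LV 2, whereas core subunits spanned 3197 to 4222 CPM over all libraries.

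The genes moved together from library to library. WntLOF RV 3 had the highest level of 28 of the 46 genes, and control RV 2 that of 7. WntLOF LV 2 had the lowest level of 24 genes, WntLOF LV 1 that of 10 and control LV 3 that of 8. Of the 46 genes, 5, 31 and 44 were above their own mean over all libraries in WntLOF RV, 3, 1 and 37 in WntLOF LV, 40, 41 and 44 in control RV, and 37, 16 and 3 in control LV. A few genes varied little: the range over the 12 libraries was 0.28 on the log2 scale for Ndufs1, against 1.53 for Ndufb11, an X-linked subunit of the membrane arm. As a description over 12 libraries that share depth and scaling, Pearson's r between a gene and the median of the other Nduf genes was 0.99 for Ndufb8 and 0.98 for Ndufb9. It was 0.05 for Ndufs1, 0.06 for Ndufaf7, 0.33 for Ndufaf4 and 0.45 for Ndufv1.

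**Figure D2:**
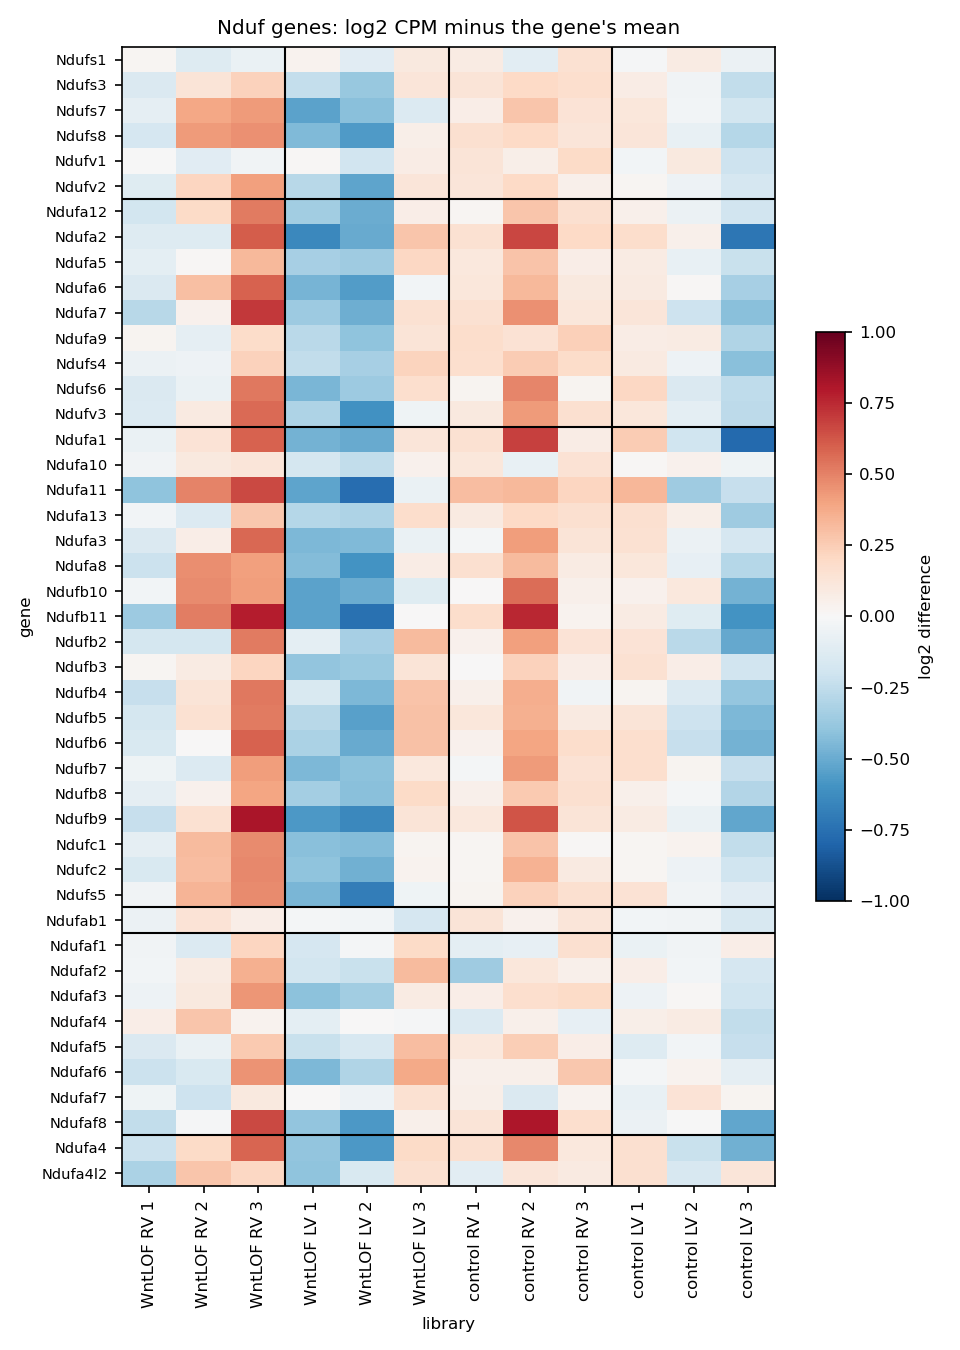
Level of 45 of the 46 genes in each library, as log2 CPM minus the gene's mean over the 12 libraries, with genes down the page by role and libraries across from WntLOF RV 1 to control LV 3. Red is above and blue below the mean; of all 46 genes, WntLOF RV 3 is above the mean for 44 and WntLOF LV 2 for 1, and the Ndufs1 line stays pale across libraries.

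Right against left ventricle was compared within each genotype. In WntLOF hearts, 43 of the 46 genes had a positive log2 fold change of RV over LV, with a median of 0.33, against 49.8% above 0 and a median near 0 over all 15494 genes. In control hearts, 42 genes were positive, with a median of 0.23, against 51% of all genes. No gene of the table passed the threshold in either genotype (edgeR's quasi-likelihood test, Benjamini-Hochberg adjusted p below 0.05, 0% called), and DESeq2 called none either. These missing calls do not show that levels were equal. At an unadjusted p below 0.05 in WntLOF hearts, 16 of the 46 genes were higher in RV and 0 lower, where 3.22% of all genes were higher. In control hearts 1 of the 46 was higher and 0 lower at that level, where 2.39% of all genes were higher. Groups that did not overlap were found for 4 genes in WntLOF hearts (3.36% of all genes were higher in RV without overlap) and 13 genes in control hearts (6.68% of all genes), with RV the higher group each time. Library by library, RV was above the LV library of the same number for 40, 43 and 41 of the 46 genes in WntLOF hearts and for 24, 39 and 45 in control hearts, while 48.6% to 52.5% of all genes tested were. The first WntLOF count is from WntLOF RV 1 and WntLOF LV 1, each with the Wif1 level of the other ventricle. Were those labels exchanged, its 40 genes would be higher in LV. With the library number as a block in the fit, which the labels do not give, the medians stayed at 0.33 and 0.23, and 29 of the 46 genes in WntLOF hearts and 21 in control hearts were higher at an unadjusted p below 0.05, where 5.5% and 4.84% of all genes were. That fit also holds the pair WntLOF RV 1 and WntLOF LV 1. Its pairing was taken from correlations in these same data, so its counts give no independent support.

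That difference is uneven across libraries. The WntLOF median of 0.33 became 0.14 without WntLOF RV 3 and 0.54 without WntLOF LV 3, and the control median of 0.23 became 0.15 without control LV 3. Without the pair WntLOF RV 1 and WntLOF LV 1, the WntLOF median was 0.36, 42 genes were positive, 15 were higher at an unadjusted p below 0.05 (4.95% of all genes), and 22 had RV above LV without overlap, where 17.9% of all genes did with the smaller groups. Without the 4 libraries numbered 3, the medians were 0.33 in WntLOF hearts, with 43 genes positive, and 0.16 in control hearts, with 39 positive. At an unadjusted p below 0.05, 25 genes were then higher in RV in WntLOF hearts (3.85% of all genes) and 2 in control hearts (1.95%).

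**Figure D3:**
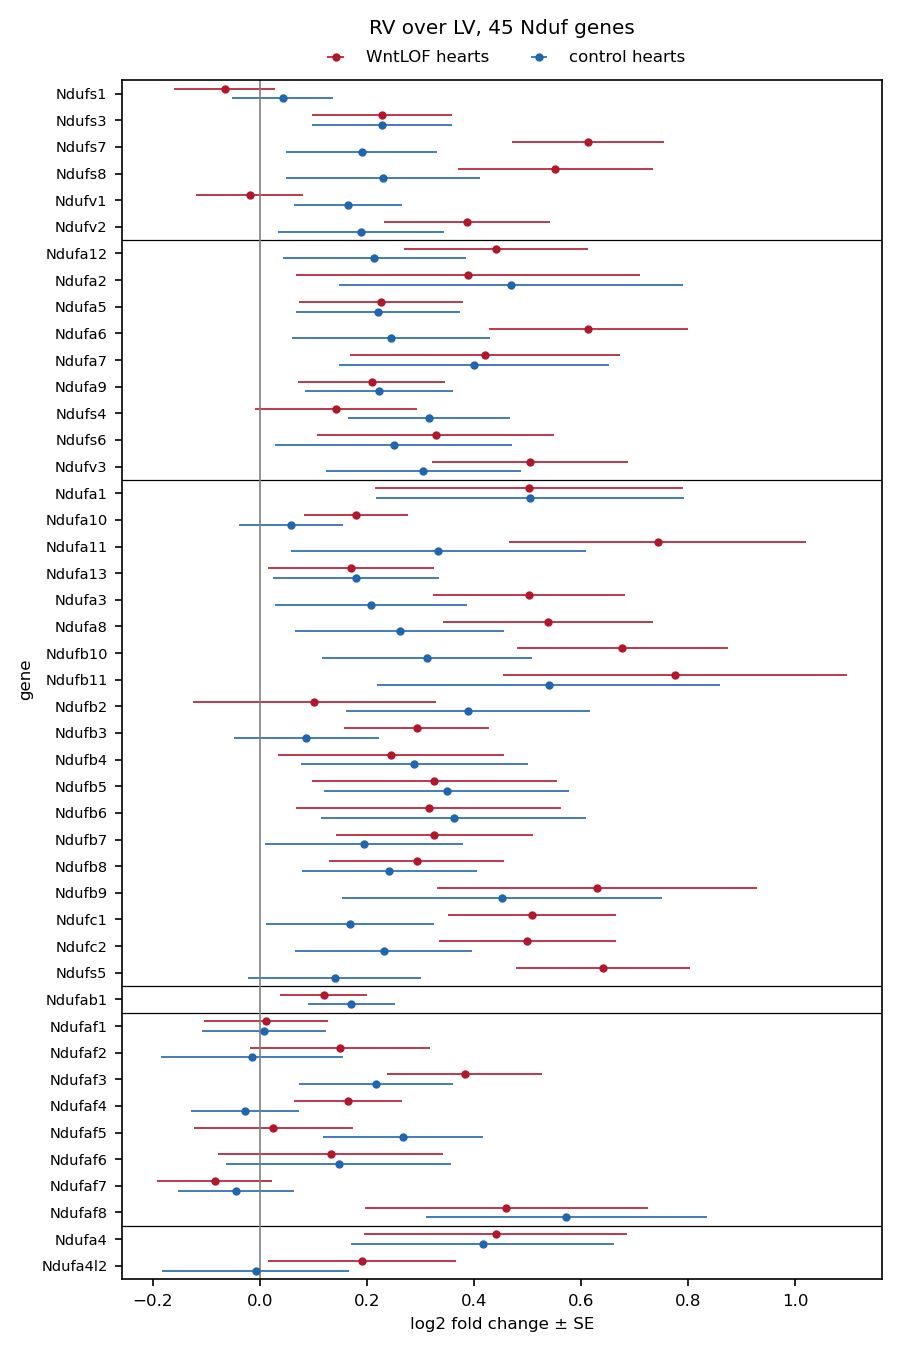
Log2 fold change of RV over LV (x axis, ± SE from edgeR's quasi-likelihood test on 12 libraries) for 45 of the 46 genes, in WntLOF hearts (red) and control hearts (blue), with horizontal lines between roles. Of all 46 genes, 43 lie right of 0 in WntLOF hearts and 42 in control hearts, from -0.08 for Ndufaf7 to 0.78 for Ndufb11 in WntLOF hearts.

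Among the core subunits, RV was above LV for 5 of 7 genes in WntLOF hearts (median 0.23) and for 7 of 7 in control hearts (median 0.19). Ndufs7 (ENSMUSG00000020153), a subunit at the ubiquinone site that carries the last iron-sulphur cluster of the chain, had 329.8, 460.4 and 472 CPM in WntLOF RV, against 242, 263 and 319 CPM in WntLOF LV. The libraries did not overlap, and the log2 fold change was 0.61 ± 0.14 (SE, unadjusted p = 0.000739, adjusted p = 1 by edgeR's quasi-likelihood test). In control hearts Ndufs7 had 368, 426 and 387 CPM in RV and 379.8, 346 and 309 CPM in LV. There the groups overlapped through control LV 1, and the log2 fold change was 0.19 ± 0.14.

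Ndufs8, which carries a pair of iron-sulphur clusters in the same part of the enzyme, had 209, 315 and 322 CPM in WntLOF RV and 173, 159 and 245 CPM in WntLOF LV. WntLOF RV 1 was below WntLOF LV 3, so the groups overlapped, with a log2 fold change of 0.55 ± 0.18 (SE, unadjusted p = 0.0103 in edgeR's test). In control hearts it had 263, 269 and 255 CPM in RV, against 255, 223 and 193 CPM in LV, a log2 fold change of 0.23 ± 0.18 with groups that only just did not overlap. Ndufv2, an iron-sulphur subunit of the NADH-oxidising tip, had 337, 427 and 487 CPM in WntLOF RV and 303, 255 and 399.5 CPM in WntLOF LV. It averaged 400.2 ± 20.1 CPM in control RV and 351 ± 22.5 CPM in control LV (SD, n = 3), without overlap. Its log2 fold changes of RV over LV were 0.39 ± 0.15 in WntLOF hearts and 0.19 in control hearts.

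Ndufs3, a subunit of the ubiquinone-binding part, had a log2 fold change of 0.23 ± 0.13 in both genotypes. It had 143, 173 and 186 CPM in WntLOF RV and 134, 122 and 172 CPM in WntLOF LV, which overlapped, and 172, 181 and 178 CPM in control RV and 166, 154 and 133 CPM in control LV, which did not. Ndufs1, the largest iron-sulphur subunit, averaged 764 ± 39.0 CPM in WntLOF RV, 799 ± 58.5 CPM in WntLOF LV, 820.0 ± 74.7 CPM in control RV and 796 ± 40.1 CPM in control LV (SD, n = 3). Its log2 fold changes of RV over LV were -0.06 ± 0.09 in WntLOF hearts and 0.04 in control hearts.

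Ndufv1 (ENSMUSG00000037916), which binds NADH and the flavin, averaged 925 ± 35.9 CPM in WntLOF RV and 937 ± 87.4 CPM in WntLOF LV, and 1044 ± 48.0 CPM in control RV and 931 ± 98.9 CPM in control LV. Its log2 fold changes of RV over LV were -0.02 in WntLOF hearts and 0.17 in control hearts. The groups of Ndufs1 and of Ndufv1 overlapped in each of these comparisons.

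Single libraries moved several of these core values by over 1.5 times. In WntLOF hearts, Ndufs3 was at 0.12 without WntLOF LV 2, 0.14 without WntLOF RV 3 and 0.37 without WntLOF LV 3, and Ndufv2 was at 0.25 without WntLOF LV 2 and 0.25 without WntLOF RV 3. In control hearts without control LV 3, the values were 0.15 for Ndufs3, 0.12 for Ndufs7, 0.13 for Ndufs8 and 0.0876 for Ndufv1, and Ndufs7 was at 0.13 without control RV 2.

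The accessory subunits of the matrix arm were higher in RV for 9 of 9 genes in both genotypes, with medians of 0.39 in WntLOF hearts and 0.25 in control hearts. Values ran from 0.14 for Ndufs4 to 0.61 for Ndufa6 in WntLOF hearts, and from 0.21 for Ndufa12 to 0.47 for Ndufa2 in control hearts. Ndufa6, which anchors the acyl carrier protein to this arm, had 149, 203 and 247 CPM in WntLOF RV and 119, 111 and 161 CPM in WntLOF LV. In control hearts it averaged 186 ± 16.9 CPM in RV and 157 ± 23.6 CPM in LV, without overlap. Its log2 fold changes were 0.61 ± 0.19 and 0.24 ± 0.18. Ndufs4, whose loss in mice causes an encephalopathy like Leigh syndrome, had 114, 115 and 139 CPM in WntLOF RV and 100.3, 94.1 and 138 CPM in WntLOF LV, which overlapped, with a log2 fold change of 0.14. In control hearts it had 134, 142 and 135 CPM in RV and 126, 114 and 88.9 CPM in LV. These groups did not overlap, and the log2 fold change was 0.32 ± 0.15 (unadjusted p = 0.0574 in edgeR's test). Without control LV 3 the control values were 0.19 for Ndufs4 and 0.13 for Ndufa6.

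The accessory subunits of the membrane arm had the largest medians, 0.50 in WntLOF hearts and 0.26 in control hearts, and 19 of 19 genes were positive in both genotypes. Values ran from 0.10 for Ndufb2 to 0.78 for Ndufb11 in WntLOF hearts, and from 0.06 for Ndufa10 to 0.54 for Ndufb11 in control hearts. Ndufb10 (ENSMUSG00000040048), a subunit of the distal part of this arm, had 328, 464 and 445 CPM in WntLOF RV and 230.1, 236 and 307 CPM in WntLOF LV, without overlap, a log2 fold change of 0.68 ± 0.20 (unadjusted p = 0.0049 in edgeR's test). In control hearts the groups overlapped, with 336, 491 and 347 CPM in RV and 344, 359.5 and 241 CPM in LV, and the log2 fold change was 0.31. Ndufs5 (ENSMUSG00000028648), a small subunit on the intermembrane side, had 18.2, 23.6 and 25.9 CPM in WntLOF RV and 13.6, 11.6 and 18.1 CPM in WntLOF LV. These groups were apart by a narrow margin, and the log2 fold change was 0.64 ± 0.16 (unadjusted p = 0.0016 in edgeR's test). Control hearts had 19.0, 21.9 and 20.9 CPM of Ndufs5 in RV and 20.6, 18.2 and 17.2 CPM in LV, which overlapped.

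The highest log2 fold changes in WntLOF hearts were those of Ndufb11, at 0.78 ± 0.32, and Ndufa11, at 0.74 ± 0.28, but both varied so widely that the groups overlapped. Ndufb11 had 127, 233 and 281 CPM in WntLOF RV and 113, 97.6 and 164 CPM in WntLOF LV. Ndufa11, which lies at the heel of the membrane arm, had 93.2, 174 and 195 CPM in WntLOF RV and 85.3, 72.4 and 118 CPM in WntLOF LV. The library WntLOF RV 1 was within the LV range for both genes. Ndufb9, which binds the acyl carrier protein in the membrane arm, had 307, 401 and 637 CPM in WntLOF RV and 242, 231 and 396 CPM in WntLOF LV, which overlapped. Control hearts had 388, 559 and 394 CPM in RV and 383, 345 and 252 CPM in LV. These groups did not overlap, although control RV 1 and control LV 1 differed little, and the log2 fold change was 0.45 ± 0.30, which became 0.26 without control RV 2 and 0.30 without control LV 3.

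Ndufa1, a small subunit of the membrane arm, is encoded on the X chromosome like Ndufb11. It had 84.8, 97.9 and 134 CPM in WntLOF RV, 64.0, 62.6 and 96.6 CPM in WntLOF LV, 98.8, 143 and 93.4 CPM in control RV, and 106, 77.2 and 51.8 CPM in control LV. The libraries numbered 3, which differ from the others in Ddx3y, were the highest in both WntLOF groups and the lowest in both control groups. The same held for the autosomal genes Ndufa4, Ndufa5 and Ndufb5, so this order was not particular to X-linked genes. For Ndufa1, the log2 fold changes of RV over LV were 0.50 in WntLOF hearts and 0.51 in control hearts, with overlap in each.

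Ndufab1, the mitochondrial acyl carrier protein, is part of complex I and also serves mitochondrial fatty acid synthesis. It had 43.6, 49.8 and 47.4 CPM in WntLOF RV, 44.8, 44.4 and 40.4 CPM in WntLOF LV, 49.6, 46.7 and 49.4 CPM in control RV, and 44.5, 44.3 and 40.5 CPM in control LV. The control groups did not overlap, and the differences were small, at log2 fold changes of 0.12 ± 0.08 in WntLOF hearts and 0.17 ± 0.08 in control hearts.

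The assembly factors had medians nearer to 0 than the subunits, 0.14 in WntLOF hearts (7 of 8 genes positive) and 0.08 in control hearts (5 of 8 positive). Ndufaf8 (ENSMUSG00000078572), a partner of Ndufaf5 known from human cells, had 11.4, 13.4 and 21.4 CPM in WntLOF RV and 10.3, 9.08 and 14.1 CPM in WntLOF LV, with overlap and a log2 fold change of 0.46 ± 0.26. Control hearts had 14.8, 23.8 and 15.2 CPM in RV and 13.0, 13.5 and 9.45 CPM in LV. These groups did not overlap, and the log2 fold change was 0.57 ± 0.26 (unadjusted p = 0.0497, adjusted p = 0.922 by edgeR's quasi-likelihood test). Without control RV 2, the library at 23.8 CPM, it was 0.31. In a fit of the 6 control libraries alone with the library number as a block, it was 0.56 ± 0.13 (adjusted p = 0.0335 by the same test). Ndufaf8 was then the 1 Nduf gene called, where 2.19% of 14899 genes tested were. That block rests on a pairing taken from these same data.

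Ndufaf5, whose human counterpart hydroxylates an arginine of the Ndufs7 protein, had 15.4, 16.2 and 20.4 CPM in WntLOF RV and 14.6, 15.3 and 21.1 CPM in WntLOF LV, with overlap and a log2 fold change of 0.03. In control hearts it had 18.4, 20.2 and 17.8 CPM in RV and 15.5, 16.7 and 14.5 CPM in LV, without overlap and with a log2 fold change of 0.27 ± 0.15. Ndufaf4, which acts early on the matrix arm, had 58.3, 67.4 and 57.1 CPM in WntLOF RV and 52.0, 55.8 and 55.4 CPM in WntLOF LV. These did not overlap although the log2 fold change was 0.16 ± 0.10, or 0.0865 without WntLOF RV 2, and in control hearts the value was -0.03. Ndufaf3, its partner, had log2 fold changes of 0.38 ± 0.14 in WntLOF hearts and 0.22 in control hearts.

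Ndufaf1, which acts on the membrane arm, had 36.6, 34.2 and 43.6 CPM in WntLOF RV, 33.5, 37.0 and 42.9 CPM in WntLOF LV, 35.0, 35.6 and 41.9 CPM in control RV, and 35.9, 36.7 and 39.3 CPM in control LV, so the library numbered 3 was the highest in each group. Among the remaining factors, Ndufaf7, a methyltransferase, was at 18.7 to 24.0 CPM in all 12 libraries, with log2 fold changes of -0.08 and -0.04. Ndufaf2, a late factor for the NADH-oxidising tip, was at 10.3 to 16.8 CPM, with log2 fold changes of 0.15 in WntLOF hearts and -0.01 in control hearts. Ndufaf6 had 11.6, 12.1 and 18.3 CPM in WntLOF RV and 9.84, 10.9 and 17.4 CPM in WntLOF LV, which overlapped, with a log2 fold change of 0.13. In control hearts its groups did not overlap, at 13.89, 13.91 and 16.2 CPM in RV and 13.3, 13.8 and 12.6 CPM in LV, with a log2 fold change of 0.15.

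Of the genes outside complex I, Ndufa4 had 330.2, 437 and 575 CPM in WntLOF RV, 292, 258 and 439 CPM in WntLOF LV, 429, 536 and 412 CPM in control RV, and 428, 328 and 275 CPM in control LV. Its log2 fold changes of RV over LV were 0.44 ± 0.24 and 0.42, in WntLOF and control hearts, and control RV 3 was below control LV 1. Ndufa4l2 was low, at 9.72, 14.6 and 14.0 CPM in WntLOF RV and 9.13, 10.9 and 13.5 CPM in WntLOF LV, with 11.3 to 13.2 CPM in control RV and 10.8 to 13.5 CPM in control LV, and its log2 fold changes were 0.19 and -0.01.

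Genes that hold the YY1 letters did not share one size of difference. The log2 fold changes of RV over LV in WntLOF and control hearts, in that order, were 0.61 and 0.19 for Ndufs7, 0.51 and 0.17 for Ndufc1, 0.46 and 0.57 for Ndufaf8, 0.33 and 0.25 for Ndufs6, 0.21 and 0.22 for Ndufa9, and 0.14 and 0.32 for Ndufs4. Carriers of the NRF1 letters ranged in WntLOF hearts from 0.03 for Ndufaf5 to 0.74 for Ndufa11.

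The WntLOF left ventricle was compared with the control left ventricle. The 46 genes had a median log2 fold change of -0.11, with 34 below 0, where 49.1% of all genes were above 0. No gene of the table passed the threshold (edgeR's quasi-likelihood test with Benjamini-Hochberg adjustment and DESeq2, 0% called), and no Nduf gene had groups that did not overlap, where 3.95% of all genes were higher and 3.95% lower in WntLOF without overlap. At an unadjusted p below 0.05, 2 of the 46 genes were lower and 0 higher, where 1.42% of all genes were lower. They were Ndufs5, at -0.37 ± 0.16 (unadjusted p = 0.0403, adjusted p = 0.999 by edgeR's test), and Ndufs7, at -0.33 ± 0.14 (unadjusted p = 0.0368, adjusted p = 0.999). Ndufs7 averaged 275 ± 39.8 CPM in WntLOF LV and 345 ± 35.4 CPM in control LV, and Ndufs5 averaged 14.4 ± 3.35 CPM in WntLOF LV and 18.7 ± 1.72 CPM in control LV (SD, n = 3).

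By role, the medians in the left ventricle were -0.09 for core subunits, -0.13 and -0.19 for the accessory subunits of the matrix and the membrane arm, and -0.00 for the assembly factors. Further core subunits had log2 fold changes of -0.22 ± 0.18 for Ndufs8, -0.14 for Ndufv2, -0.08 for Ndufs3, 0.01 for Ndufv1 and 0.00 for Ndufs1. Ndufs8 was at -0.42 and Ndufv2 at -0.32 without WntLOF LV 3. Without WntLOF LV 2 they were at -0.0973 and 0.0026, and Ndufs8 was at -0.11 without control LV 1. Ndufs3 ran from -0.23 without WntLOF LV 3 to 0.02 without WntLOF LV 2. Ndufa11 was at -0.37 ± 0.28, and Ndufb2 had the highest value, 0.17. Single libraries decided the size of the median. It was -0.30 without WntLOF LV 3 and -0.19 without control LV 3. It was -0.01 without WntLOF LV 2, -0.04 without WntLOF LV 1 and -0.04 without control LV 1.

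Without the 4 libraries numbered 3, the median in the left ventricle was -0.38, 45 of the 46 genes were below 0, and 29 were lower at an unadjusted p below 0.05, where 4.07% of 15622 genes were. Ndufa2 was then at -0.67, Ndufb9 and Ndufs5 at -0.61 and Ndufs7 at -0.51, and none passed the adjusted threshold. The library WntLOF LV 1, which has the Wif1 level of a right ventricle, is 1 of the remaining WntLOF LV pair. Without the pair WntLOF RV 1 and WntLOF LV 1, and with the libraries numbered 3, the median was -0.04, with 16 genes above 0.

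**Figure D4:**
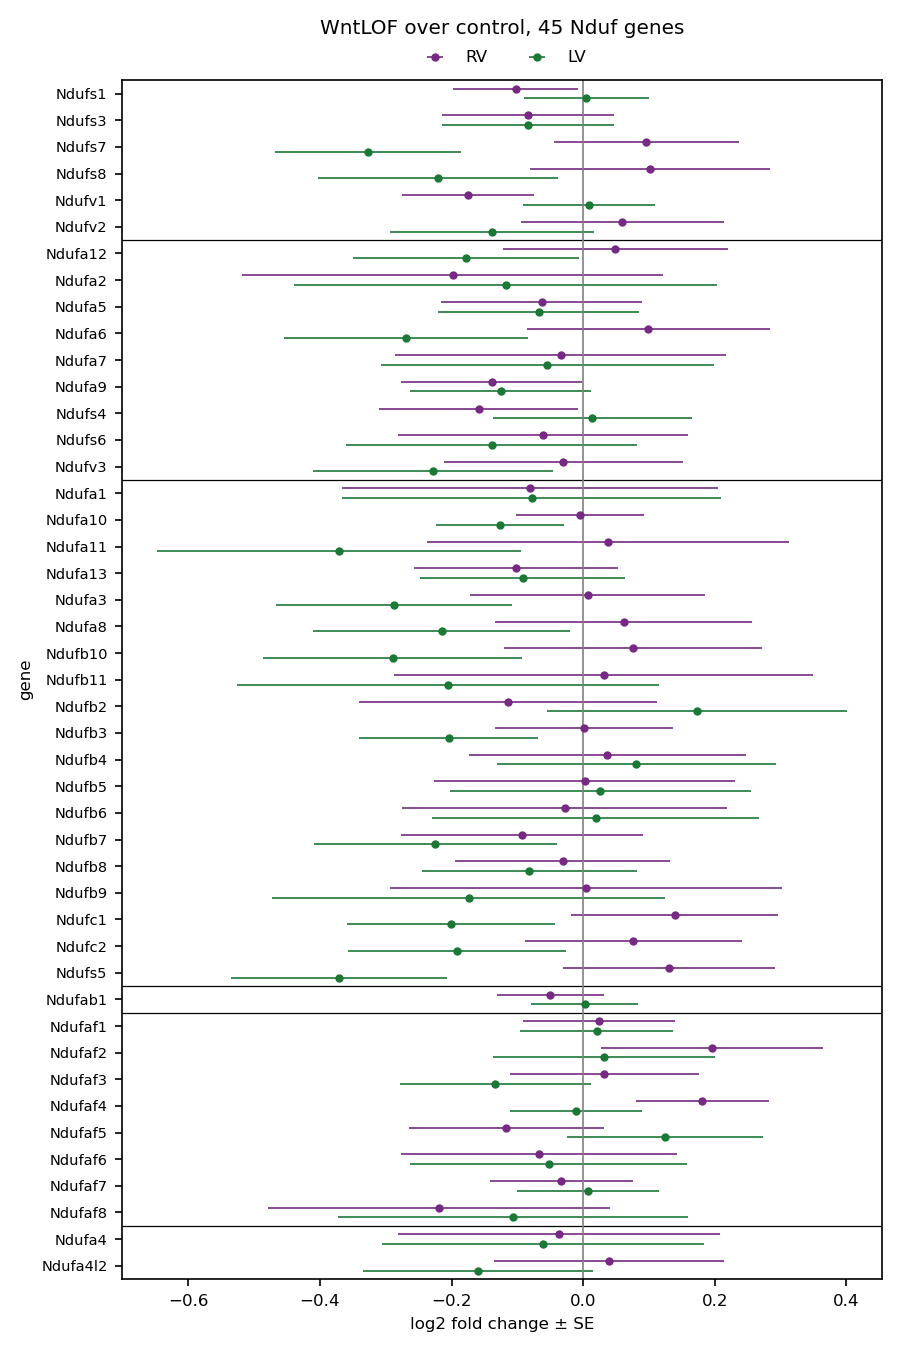
Log2 fold change of WntLOF over control (x axis, ± SE from edgeR's quasi-likelihood test on 12 libraries) for 45 of the 46 genes, in the right ventricle (purple) and the left ventricle (green), with horizontal lines between roles. Values in RV range from -0.22 for Ndufaf8 to 0.20 for Ndufaf2, and in LV from -0.37 for Ndufs5 and Ndufa11 to 0.17 for Ndufb2.

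The same comparison was made in the right ventricle. There the median log2 fold change of WntLOF over control was -0.02, with 22 genes above 0, where 50.3% of all genes were above 0. No gene of the table passed the threshold (edgeR's quasi-likelihood test with Benjamini-Hochberg adjustment and DESeq2, 0% called), and no Nduf gene had an unadjusted p below 0.05, where 2.7% of all genes did. Ndufv1 was the 1 gene whose groups did not overlap (3.94% of all genes were lower in WntLOF without overlap), with 955, 886 and 934 CPM in WntLOF RV and 1047, 995 and 1091 CPM in control RV. Its log2 fold change was -0.17 ± 0.10 (unadjusted p = 0.103 in edgeR's test).

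Further core subunits in the right ventricle were at -0.10 for Ndufs1, -0.08 for Ndufs3, 0.06 for Ndufv2, and 0.10 for Ndufs7 and Ndufs8. By role, the medians were -0.08 for core subunits, -0.06 for the matrix arm, 0.00 for the membrane arm and -0.00 for the assembly factors. The sign of the median of all 46 genes turned with single libraries. It was 0.12 without WntLOF RV 1, 0.08 without control RV 2, 0.01 without WntLOF RV 2 and -0.17 without WntLOF RV 3. Without the pair WntLOF RV 1 and WntLOF LV 1, 35 genes were above 0, and 8 were higher in WntLOF RV and 1 lower without overlap, where 10.3% and 10.4% of all genes were. Without the 4 libraries numbered 3 the median was -0.18, with 41 genes below 0 and 8 lower at an unadjusted p below 0.05 (1.85% of all genes).

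Whether the right-left difference itself depended on genotype was tested as an interaction. The median of the 46 genes was 0.06, with 29 above 0, where 50.9% of all genes were, and no gene of the table passed the threshold (edgeR's quasi-likelihood test with Benjamini-Hochberg adjustment and DESeq2, 0% called). At an unadjusted p below 0.05, 1 of the 46 genes had a larger right-left difference in WntLOF hearts, where 1.05% of all genes did. That gene was Ndufs5, at 0.50 ± 0.23 (unadjusted p = 0.0472 in edgeR's test), and Ndufs7 followed at 0.42 ± 0.20 (unadjusted p = 0.0528). Further core subunits were at 0.32 for Ndufs8, 0.20 for Ndufv2, -0.00 for Ndufs3, -0.11 for Ndufs1 and -0.18 for Ndufv1, and the lowest value was -0.29, for Ndufb2. The median was 0.27 without WntLOF LV 3, 0.20 without WntLOF RV 1, 0.17 without control RV 2, 0.16 without control LV 3 and -0.08 without WntLOF RV 3.

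The size of the right-left difference among the 46 genes went with exon length, taken as the exon union over all transcripts of a gene. That union can be longer than the transcripts in use. In WntLOF hearts, the median log2 fold change of RV over LV was 0.48 for the 10 genes with under 1000 bases of exon, 0.44 for the 19 genes with 1000 to 2000 bases, and 0.16 for the 17 longer genes. In control hearts these medians were 0.31, 0.22 and 0.19. Across the 46 genes, which are not independent replicates, Spearman's rho between exon length and the log2 fold change was -0.55 in WntLOF hearts and -0.36 in control hearts. For WntLOF over control it was 0.41 in the left ventricle and -0.14 in the right. The part of gene length in the differences was not tested.

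**Figure D5:**
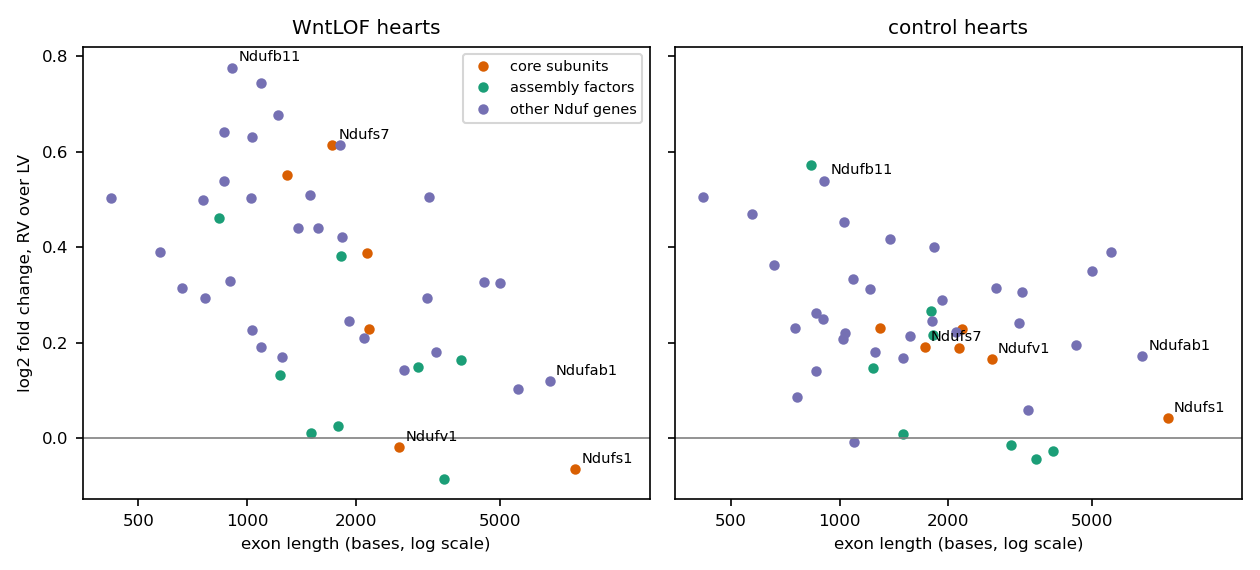
Log2 fold change of RV over LV (y axis) against exon length in bases (x axis, log scale) for 45 of the 46 genes, in WntLOF hearts (left) and control hearts (right), with core subunits in orange, assembly factors in green and other Nduf genes in violet. Ndufb11, with a short exon union, lies high, and Ndufs1, with a long one, lies near 0. Spearman's rho over all 46 genes was -0.55 in WntLOF hearts and -0.36 in control hearts.

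Other gene lists showed the same direction. Nuclear genes of complexes II to V were higher in RV for 39 of 40 genes in both genotypes, with medians of 0.36 in WntLOF hearts and 0.28 in control hearts, and for complex IV the medians were 0.54 and 0.36. Cytosolic ribosomal protein genes were higher in RV for 58 of 76 tested genes in WntLOF hearts and 62 of 76 in control hearts, with medians of 0.20 and 0.22. None of these genes passed the adjusted threshold. The summed ribosomal levels were 2487, 3120.4 and 3318 CPM in WntLOF RV, 2155, 2103 and 2831 CPM in WntLOF LV, 2855, 3542 and 2824 CPM in control RV, and 2849, 2612 and 2198 CPM in control LV. Within each genotype, the libraries with the highest and lowest ribosomal sums were also those with the highest and lowest Nduf sums. The cause of this shared direction was not tested.

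The mitochondrially encoded subunits of complex I resembled the Nduf genes by their median in WntLOF hearts but not in control hearts. Single genes in control hearts ran from -0.33 ± 0.52 (SE) for mt-Nd5 to 0.38 ± 0.23 for mt-Nd4. In the 5 genes tested, the median log2 fold change of RV over LV was 0.51 in WntLOF hearts and 0.01 in control hearts, and mt-Nd3 and mt-Nd4l are listed at 0 in every library. Their summed level was 8954, 18771 and 15407 CPM in WntLOF RV, 7757, 12533 and 11100 CPM in WntLOF LV, 9114, 10307 and 14473 CPM in control RV, and 8390 (number 1), 9162 and 16488 CPM in control LV. Control LV 3, the control library with the lowest Nduf sum, had the highest mitochondrially encoded sum of the control libraries. The 10 further assembly factors without an Nduf name had medians near 0, at 0.00 in WntLOF hearts and 0.04 in control hearts, and 14 regulators of mitochondrial genes had medians of -0.07 and 0.05.

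Markers of other cell types moved with some of these results. Erythroid markers come from blood left in the tissue. Their summed level over 5 genes was 89.3, 151 and 321 CPM in WntLOF RV, 77.3, 94.9 and 224 CPM in WntLOF LV, 167, 247 and 164 CPM in control RV, and 119, 109.7 and 138 CPM in control LV. In WntLOF RV 1, Hba-a2 had 0 counts. The sums overlapped between RV and LV in WntLOF hearts and did not in control hearts, as for the Nduf sums. Of the 5 genes, 4 had a positive log2 fold change of RV over LV in WntLOF hearts, with a median of 0.54, and 5 in control hearts, with a median of 0.61. WntLOF RV 3 and control RV 2 had the highest erythroid sums of their groups and, between them, the highest level of most Nduf genes, and the part of blood in these differences was not tested. Macrophage markers, over 6 genes, summed to 215, 234 and 245 CPM in WntLOF RV, 188, 178 and 222 CPM in WntLOF LV, 204, 251 and 195 CPM in control RV, and 193, 212 and 174 CPM in control LV. Like the Nduf sums, they were highest in WntLOF RV 3 and control RV 2 within their groups and lowest in WntLOF LV 2 and control LV 3. All 6 genes were positive in RV over LV in both genotypes, with medians of 0.23 in WntLOF hearts and 0.15 in control hearts.

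Endothelial markers, over 7 genes, summed to 857 to 1035 CPM in WntLOF RV, 834 to 1022 CPM in WntLOF LV, 924 to 985 CPM in control RV and 1038 to 1133 CPM in control LV. They were lower in control RV than in control LV without overlap, with 7 of 7 genes below 0 and a median of -0.16, and overlapped in WntLOF hearts, with 3 of 7 below 0 and a median of 0.04. Fibroblast markers summed to 1378 to 1552 CPM in WntLOF RV, 1480.4 to 1666 CPM in WntLOF LV, 1176 to 1621 CPM in control RV and 1413 to 1552 CPM in control LV, and none of the 7 had 0 counts. No macrophage or endothelial marker had 0 counts either, and the part of these cells in the Nduf differences was not tested.

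The authors also deposited comparison tables of WntLOF against control in each ventricle, and all 46 genes were among their 14179 genes. In the authors' deposited table for the right ventricle, the median log2 fold change of WntLOF over control for the 46 genes was 0.09, from -0.17 for Ndufv1 to 0.29 for Ndufaf2, and the smallest adjusted p was 0.918. In the authors' deposited table for the left ventricle, the median was -0.14, from -0.41 for Ndufs5 to 0.15 for Ndufb2, with a smallest adjusted p of 0.841. The deposited median for the right ventricle differed in sign from the -0.02 given above. The deposited values and those given above rest on the same libraries, and the model behind the deposited tables is not stated.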

How the data were processed

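RNA was extracted with Trizol and made into Illumina libraries, per the labels' protocols. The authors deposited raw counts per Ensembl gene, and comparison tables with log2 fold changes and p-values, per the file headers. Reads were assigned to genes with featureCounts from Subread, and edgeR was used, per the submitters' processing notes. The sources used here do not give the aligner, build, strand setting or versions, and reads shared with overlapping genes or pseudogene copies cannot be separated. The table had 41192 rows for 40594 genes; 598 repeated rows with equal counts were dropped, including those of Ndufb4 (3 Entrez identifiers) and Ndufa11 (2).

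The analysis used edgeR 4.0.16 (R 4.3.3, with limma 3.58.1; DESeq2 1.42.0 as an alternative): filterByExpr by group, TMM factors (0.961 to 1.04), a robust quasi-likelihood fit of 12 libraries with 1 mean per group, and 5 contrasts, with Benjamini-Hochberg adjustment over 15494 genes and a threshold of 0.05. CPM values use the TMM-scaled totals. Each SE was obtained as the absolute log2 fold change divided by the root of its F statistic. TPM used exon unions of GENCODE M21, and promoters came from RefSeq (GRCm38.p6). Named genes were the core subunits (1 is not reported here), up to 5 genes per direction without overlap, called genes, assembly factors and the 2 names outside complex I. Other genes were named after their values were seen. The members, the lists and the rule were chosen with earlier results of these data known.

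The fit was also tested on simulated data with known changes.

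The labels do not pair libraries. Deviations from group means, over all genes, correlated between RV and LV libraries of the same number. Values were 0.191, 0.197 and 0.594 in WntLOF hearts and 0.411, 0.29 and 0.517 in control hearts. The replicate block therefore took the numbers to pair RV with LV libraries, while the main fit held no block. That pairing comes from the data and not from the labels. WntLOF RV 2 and WntLOF LV 1 correlated at 0.201, above the value of either with its own number. Between genotypes the numbers were not taken as paired, since the values were 0.0885, 0.113 and 0.306 in RV and -0.043, -0.090 and 0.233 in LV. Each time the value was highest for number 3, whose libraries also differ from the others in Ddx3y. Alternatives were other size factors, filters, DESeq2, the replicate block, the compared groups alone, and libraries left out; leaving out the 4 libraries numbered 3 was chosen after seeing the data.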

Additional observations from a re-analysis of the deposited data

How the results depend on the processing

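The medians of the 46 Nduf genes kept their sign in RV against LV under every alternative run, from 0.14 to 0.54 in WntLOF hearts and 0.15 to 0.29 in control hearts with 1 library left out. With 1 library left out, the WntLOF against control medians ranged from -0.30 to -0.01 in LV and from -0.17 to 0.12 in RV, and that of the interaction from -0.08 to 0.27. Without the 4 libraries numbered 3, the LV median was -0.38. With the replicate block, medians for RV against LV were 0.33 in WntLOF hearts and 0.23 in control hearts. They were -0.12 for WntLOF against control in LV, -0.04 in RV and 0.07 for the interaction. For WntLOF against control, the block joined libraries of the same number across genotypes, which were not taken as paired. The block changed the call of no Nduf gene in the fit of all libraries. No gene of the table was called in any planned comparison, and some alternatives called genes: in RV against LV of WntLOF hearts, 1 with the replicate block, 1 with the groups alone and the block, and 2 without the pair WntLOF RV 1 and WntLOF LV 1, with or without control LV 2; in RV against LV of control hearts, 9 with the groups alone, 326 with the groups alone and the replicate block (1 of them Nduf), and 2 without that pair, with or without control LV 2; in the interaction, 1 with the block. Leaving out 1 library gave 0 to 1 calls in RV against LV of WntLOF hearts and in WntLOF against control of RV. The cause was not tested.

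Core subunits near 0 changed sign. Without the pair, Ndufs1 (-0.0068) and Ndufv1 (-0.0118) did in LV, Ndufs3 in RV (0.0171), and Ndufs3 (0.0583) in the interaction; without control LV 2 as well, Ndufs3 in RV (0.0170), and Ndufs3 (0.0447) in the interaction. Ndufs3 in the interaction was 0.0048 with RLE size factors, 0.0048 with DESeq2 and 0.0011 with the replicate block. Without the libraries numbered 3, values were -0.0587 for Ndufs1 and -0.11 for Ndufv1 in LV; -0.0093 for Ndufs7, -0.0271 for Ndufs8 and -0.10 for Ndufv2 in RV; in RV against LV, 0.0154 for Ndufv1 in WntLOF hearts, and -0.0434 for Ndufs1 in control hearts; and 0.0156 for Ndufs1 and 0.14 for Ndufs3 in the interaction. With 1 library left out, ranges in LV were -0.0287 to 0.0656 for Ndufs1, -0.0608 to 0.0887 for Ndufv1, -0.23 to 0.0215 for Ndufs3 and -0.32 to 0.0026 for Ndufv2; in RV, -0.17 to 0.0168 for Ndufs3, -0.0050 to 0.28 for Ndufs8 and -0.0677 to 0.19 for Ndufv2; in RV against LV, -0.10 to 0.0248 for Ndufv1 in WntLOF hearts, and -0.0132 to 0.11 for Ndufs1 in control hearts; and in the interaction, -0.10 to 0.15 for Ndufs3. Fits of the compared groups alone do not apply to the interaction.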
